A study of Mus musculus with 3 samples.

Results

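The genes described here were 9 components of the Sonic hedgehog pathway, among the 20141 genes that could be named on the arrays. They are Shh, Ptch1, Smo, Boc, Gas1, Hhip, Gli1, Gli2 and Gli3. They were taken by name, and a probe was assigned to one of them when the transcript it was designed for is a RefSeq transcript of that gene. This gave 13 probes among the 26576 named ones, with 1 probe for 6 of the genes and several for Smo, Gas1 and Hhip. Each of the 9 genes had at least 1 probe.

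RNA was hybridized to 3 one-color arrays, 1 for each of 3 cell populations purified by fluorescence-activated sorting. Both ES-Lhx6-GFP+ cells and their ES-Lhx6-GFP- counterparts came from the same kind of culture, the mouse ES cell line J14 of 129S4/SvJae background. These cells are male and carry an Lhx6-GFP BAC transgene together with a viral 692-mCherry enhancer reporter. They were aggregated in medium with 100 ng/ml Dkk-1, a Wnt antagonist, received 6 nM SAG from day 3, and were sorted on day 12. SAG is a small molecule that activates Smo directly, and both ES populations had been exposed to it. MGE-GFP+ cells were sorted without culture from the medial ganglionic eminence (MGE) of embryos at E12.5. These embryos carried the Lhx6-GFP BAC on a CD1 background, and the labels give them as female. GFP in all 3 populations reports activity of Lhx6 regulatory sequence, which is found in postmitotic neurons of the MGE, and J14 is 1 cell line. Strain, sex, culture and SAG all differed between the MGE-GFP+ array and both ES arrays, so their parts in a difference cannot be told apart. With 1 array per population there was no replicate and no test between populations.

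Sonic hedgehog is a secreted protein that patterns the ventral neural tube and forebrain. In its absence the receptor Ptch1 holds the transmembrane protein Smo inactive. When Shh binds Ptch1, with Boc, Cdon or Gas1 as co-receptors, Smo acts at the primary cilium on the transcription factors Gli1, Gli2 and Gli3. Gli1, Ptch1 and Hhip are themselves switched on by the pathway, and their mRNA is widely used as a readout of it. In the embryonic MGE, Shh is made by newly generated neurons of the mantle zone, while the dividing progenitors of the ventricular zone respond to it.

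Intensities are given as scanned, after the background had been subtracted, and have no unit. Before arrays were compared, log2 intensities were set relative to the 75th percentile of the array, which was 747 for ES-Lhx6-GFP+, 843 for ES-Lhx6-GFP- and 576 for MGE-GFP+ cells. Where 3 values are listed without names, they stand for ES-Lhx6-GFP+, then ES-Lhx6-GFP-, then MGE-GFP+ cells. Repeat spots of the same probe had an SD of 0.139 to 0.144 on the log2 scale, so that 2 SDs of a difference corresponded to 1.32-fold. This spread covers printing and scanning alone. Probes for E1A and ERCC sequences, of which there were 106, have no mouse target, and their 95th percentile was 379, 212 and 152 on the 3 arrays. The ES-Lhx6-GFP+ array stood apart, with 86 of these control probes well above background, compared with 34 on each of the other two. Of the 13 probes of the pathway genes, 8 lay within this control range in ES-Lhx6-GFP+, 2 in ES-Lhx6-GFP- and 7 in MGE-GFP+ cells. The median difference of all genes was 0.27 (log2) for ES-Lhx6-GFP+ relative to ES-Lhx6-GFP- cells, -0.36 for MGE-GFP+ relative to ES-Lhx6-GFP+ and -0.06 for MGE-GFP+ relative to ES-Lhx6-GFP- cells. With the 50th percentile in place of the 75th these medians became -0.18, 0.40 and 0.25, so a small difference has no settled sign.

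**Figure D1:**
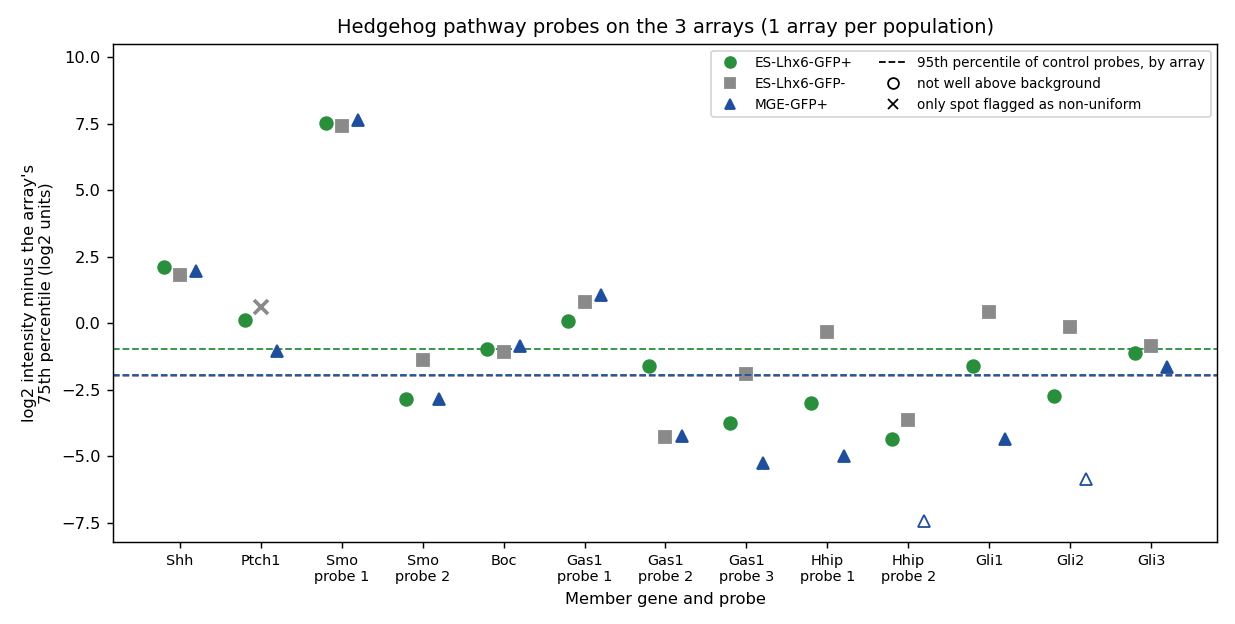
Level of each probe of the 9 genes (log2 intensity minus the 75th percentile of the array, y axis) on the 3 arrays, 1 symbol per array. Dashed lines mark the 95th percentile of the control probes on each array (the lines of the ES-Lhx6-GFP- and MGE-GFP+ arrays nearly coincide), open symbols are not well above background, and the cross is the flagged Ptch1 spot. Shh lies above the lines on all 3 arrays, whereas Gli1, Gli2 and the first probe of Hhip lie above the line on the ES-Lhx6-GFP- array alone.

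Shh, the ligand, was measured at a similar level in all 3 populations. Its probe was printed 10 times on each array. The intensity over these spots ranged from 2814 to 3742 (median 3189) on the ES-Lhx6-GFP+ array, from 2609 to 3237 (median 2992) on the ES-Lhx6-GFP- array and from 2057 to 2415 (median 2260) on the MGE-GFP+ array. All of these spots were far above the control probes. After scaling, the level was 2.10 ± 0.11 (log2, SD over 10 spots) in ES-Lhx6-GFP+ cells. It was 1.81 ± 0.09 in ES-Lhx6-GFP- cells and 1.98 ± 0.08 in MGE-GFP+ cells. The ranges of the spots overlapped between every pair of arrays, though only just between ES-Lhx6-GFP+ (1.91 to 2.32) and ES-Lhx6-GFP- cells (1.63 to 1.94). Spots at the same position were 0.29 ± 0.06 higher in ES-Lhx6-GFP+ than in ES-Lhx6-GFP- cells, as were 10 of 10 taken singly. This difference of 1.22-fold exceeded the spread of the matched spots, but it became -0.15 with scaling to the 50th percentile. MGE-GFP+ cells differed from ES-Lhx6-GFP+ cells by -0.13 ± 0.10 and from ES-Lhx6-GFP- cells by 0.16 ± 0.09. The first of these became 0.62 with the 50th percentile, and the second -0.04 in the deposited log2 values. The order of the 3 populations for Shh was therefore not settled by these arrays.

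**Figure D2:**
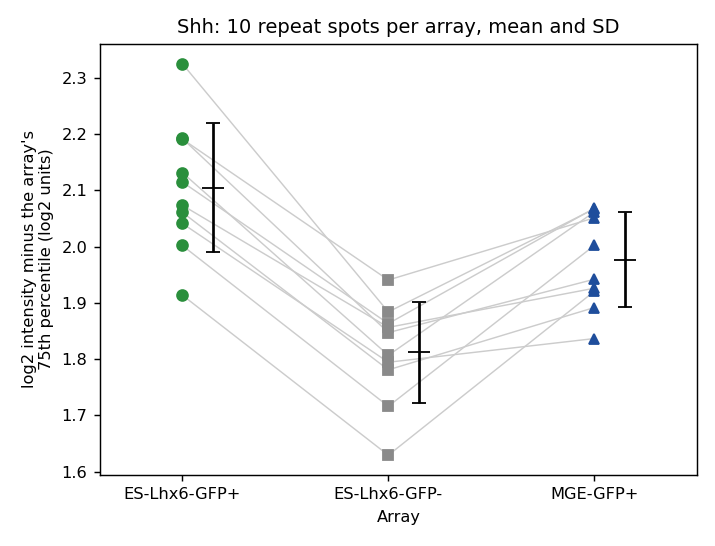
Level of Shh (log2 intensity minus the 75th percentile of the array, y axis, which does not start at 0) at the 10 repeat spots of each array (x axis), with spots of the same position joined by gray lines and the mean and SD over spots in black. The means are 2.10, 1.81 and 1.98, and the SDs describe spots on 1 array, not separate samples.

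Of the other hedgehog ligands, neither was above the control range on any array. Dhh had intensities of 26.9, 30.8 and 2.56, and Ihh had 368, 41.0 and 67.0. Both were named after their values were seen. Hhat, the acyltransferase that adds palmitate to hedgehog proteins, had scaled levels of -2.46, -1.41 and -1.35 and was 2.07-fold lower in ES-Lhx6-GFP+ than in ES-Lhx6-GFP- cells. Scube1, related to proteins that help release the ligand from cells, was 2.07-fold higher in MGE-GFP+ than in ES-Lhx6-GFP- cells.

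Ptch1, the receptor and a target of the pathway, was lowest in MGE-GFP+ cells. Its single probe had an intensity of 811 for ES-Lhx6-GFP+ and 283 for MGE-GFP+ cells, both above the control range. On the ES-Lhx6-GFP- array the only spot, at 1280, was flagged as non-uniform and was left out. MGE-GFP+ cells had 2.21-fold less Ptch1 than ES-Lhx6-GFP+ cells (log2 difference -1.14), and -0.79 relative to the median of all genes. With the 50th percentile the difference was 1.32-fold. With the flagged spot kept, Ptch1 in ES-Lhx6-GFP- cells exceeded the level of ES-Lhx6-GFP+ cells by 1.40-fold and that of MGE-GFP+ cells by 3.09-fold.

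Smo, the transducer that SAG acts on, was read by 2 probes that did not agree. The first was among the bright probes of the arrays, at 138884, 143898 and 115515. The second was at 105, 322 and 79.8, and was above the control range in ES-Lhx6-GFP- cells alone. The first differed by at most 1.18-fold in any comparison. The second was highest in ES-Lhx6-GFP- cells, 2.71-fold over ES-Lhx6-GFP+ and 2.76-fold over MGE-GFP+ cells, and differed by 1.02-fold between both GFP+ populations. Which probe reads Smo mRNA was not tested. The mean of both gave -0.66 for ES-Lhx6-GFP+ relative to ES-Lhx6-GFP- cells, but -1.10 with the 50th percentile, -1.15 with quantile normalization and 0.12 with the brighter probe alone, so no direction is given for Smo.

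Among the co-receptors, Boc was nearly level. Its intensity was 388, 405 and 320. It exceeded 2 SDs of the repeat spots in none of the 3 comparisons, the largest difference being 1.16-fold. MGE-GFP+ cells had the higher level under all 11 settings for computing a difference (other scalings, background corrections, floors and choices of probe), in both comparisons with ES cells, with differences from 0.10 to 0.85 (log2) relative to ES-Lhx6-GFP+ and from 0.14 to 0.52 relative to ES-Lhx6-GFP- cells. For a gene with 1 probe, such as Boc or a Gli factor, several settings return nearly the same value, so they are not 11 separate checks. Cdon, the co-receptor related to Boc, was at 373, 399 and 559 on average over its 2 probes and was 2.05-fold higher in MGE-GFP+ than in ES-Lhx6-GFP- cells.

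Gas1, a co-receptor anchored to the membrane, had 3 probes with 3 different patterns. The first and brightest was at 799 in ES-Lhx6-GFP+, 1461 in ES-Lhx6-GFP- and 1200 in MGE-GFP+ cells, above the control range on all 3 arrays. ES-Lhx6-GFP+ cells were 1.62-fold below ES-Lhx6-GFP- cells by this probe, and MGE-GFP+ cells were 1.95-fold above ES-Lhx6-GFP+ cells. The second was at 245, 43.9 and 30.4, within the control range everywhere. Here ES-Lhx6-GFP+ cells were 6.29-fold above ES-Lhx6-GFP- cells, from which MGE-GFP+ cells differed by 1.01-fold. The third was at 56.0, 224 and 15.3 and was above the control range in ES-Lhx6-GFP- cells alone. The mean over the 3 probes was -1.06 in MGE-GFP+ relative to ES-Lhx6-GFP+ cells and -1.01 relative to ES-Lhx6-GFP- cells (log2). The brightest probe alone gave 0.96 and 0.27, in the other direction, so no direction is given for Gas1.

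Hhip, the membrane protein that binds and sequesters hedgehog ligands, was highest in ES-Lhx6-GFP- cells. The first of its 2 probes was at 94.1 in ES-Lhx6-GFP+, 668 in ES-Lhx6-GFP- and 18.2 in MGE-GFP+ cells. The second was at 37.1, 68.7 and 3.36, the last of these not well above background. Both probes gave the same order, and only the first, on the ES-Lhx6-GFP- array, was above the control range. By the first probe, ES-Lhx6-GFP+ cells were 6.29-fold and MGE-GFP+ cells 25.1-fold below ES-Lhx6-GFP- cells. By the second they were 1.64-fold and at least 3.88-fold lower. "At least" here and below means that the dimmer array was set to the lowest scaled intensity of any probe well above background on it. With the floor raised to the 95th percentile of the control probes, the differences for Hhip were at least 1.56-fold and at least 3.01-fold. Between both GFP+ populations its level was within the control range on either side. There the mean of its probes was -1.62 in MGE-GFP+ relative to ES-Lhx6-GFP+ cells, but 0.14 in the deposited log2 values, so that order is not settled.

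Gli1, the factor whose own transcription follows pathway activity, was highest in ES-Lhx6-GFP- cells. The probe had an intensity of 245 in ES-Lhx6-GFP+, 1133 in ES-Lhx6-GFP- and 28.3 in MGE-GFP+ cells, all well above background. Only the ES-Lhx6-GFP- value exceeded the control range of its array. Gli1 was 4.10-fold lower in ES-Lhx6-GFP+ and 27.4-fold lower in MGE-GFP+ than in ES-Lhx6-GFP- cells. With the floor at the control probes these became at least 2.64-fold and at least 5.10-fold. Over all 11 settings the difference of ES-Lhx6-GFP+ from ES-Lhx6-GFP- cells ran from -2.48 to -1.40 (log2), and that of MGE-GFP+ from ES-Lhx6-GFP- cells from -4.77 to -2.35. MGE-GFP+ cells were 6.67-fold below ES-Lhx6-GFP+ cells, and 2.11-fold in the deposited log2 values. As both levels lay within the control range, no difference could be stated there above the control probes.

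Gli2, the main activator among the Gli factors, was likewise highest in ES-Lhx6-GFP- cells. It was at 114 in ES-Lhx6-GFP+, 762 in ES-Lhx6-GFP- and 9.88 in MGE-GFP+ cells, the last not well above background. ES-Lhx6-GFP+ cells had 5.94-fold less Gli2 than ES-Lhx6-GFP- cells, and MGE-GFP+ cells at least 43.1-fold less. These were at least 1.78-fold and at least 3.43-fold with the floor at the control probes. The difference of ES-Lhx6-GFP+ from ES-Lhx6-GFP- cells ranged from -3.33 to -0.83 (log2) over the 11 settings, with 1 sign throughout. MGE-GFP+ cells were at least 7.25-fold below ES-Lhx6-GFP+ cells, but at least 1.39-fold in the deposited log2 values, again with both levels in the control range.

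Gli3, which acts mainly as a repressor in the absence of ligand, varied far less. Its intensity was 346 in ES-Lhx6-GFP+, 465 in ES-Lhx6-GFP- and 187 in MGE-GFP+ cells, and the first of these was within the control range. ES-Lhx6-GFP+ cells were 1.19-fold below ES-Lhx6-GFP- cells, which is within 2 SDs of the repeat spots. MGE-GFP+ cells were 1.70-fold below ES-Lhx6-GFP- cells, which is beyond them, and 1.43-fold below ES-Lhx6-GFP+ cells, a difference that became 0.23 (log2) in the other direction with the 50th percentile. Relative to ES-Lhx6-GFP- cells, Gli3 ranged over the 11 settings from -0.69 to -0.03 (log2) in ES-Lhx6-GFP+ cells. In MGE-GFP+ cells it ranged from -0.77 to -0.43.

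Taking the 9 genes as a group, 3 of the 8 with a value (Hhip, Gli1 and Gli2) were at least 2-fold lower in ES-Lhx6-GFP+ than in ES-Lhx6-GFP- cells and 0 were higher. Among all 18651 genes with a value 6.4% were at least 2-fold lower and 24.0% higher, or 30.4% in either direction. With the 50th percentile 13.7% were lower and 14.9% higher. The median of the 8 genes was -0.45 (log2), compared with 0.27 for all genes. Relative to the latter Hhip stood at -1.95, Gli1 at -2.30 and Gli2 at -2.84. Ptch1 has no value in this count because of its flag. In MGE-GFP+ relative to ES-Lhx6-GFP- cells 4 of 8 (Gas1, Hhip, Gli1 and Gli2) were at least 2-fold lower and 0 higher, where 17.2% of 17021 genes were lower and 9.91% higher (27.1% in either direction). With the 50th percentile 12.6% were lower and 17.9% higher. Their median was -0.89, compared with -0.06. Gas1 is counted here by the mean of its disagreeing probes. It dropped out with its brightest probe, the 50th percentile, quantile normalization or the floor at the control probes, each of which left 3 (Hhip, Gli1 and Gli2). These comparisons share the ES-Lhx6-GFP- array.

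In MGE-GFP+ relative to ES-Lhx6-GFP+ cells 5 of 9 genes (Ptch1, Gas1, Hhip, Gli1 and Gli2) were at least 2-fold lower and 0 higher. On this pair of arrays 32.2% of all 18576 genes were lower and 5.49% higher (37.7% in either direction), and the medians were -1.06 for the 9 genes and -0.36 for all. With the 50th percentile 17.1% of all genes were lower and 26.0% higher. The count of 5 rested on the scaling and on dim probes. It was 2 with the 50th percentile (Gli1 and Gli2), 2 in the deposited log2 values (Ptch1 and Gli1) and 1, Ptch1, with the floor at the control probes.

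**Figure D3:**
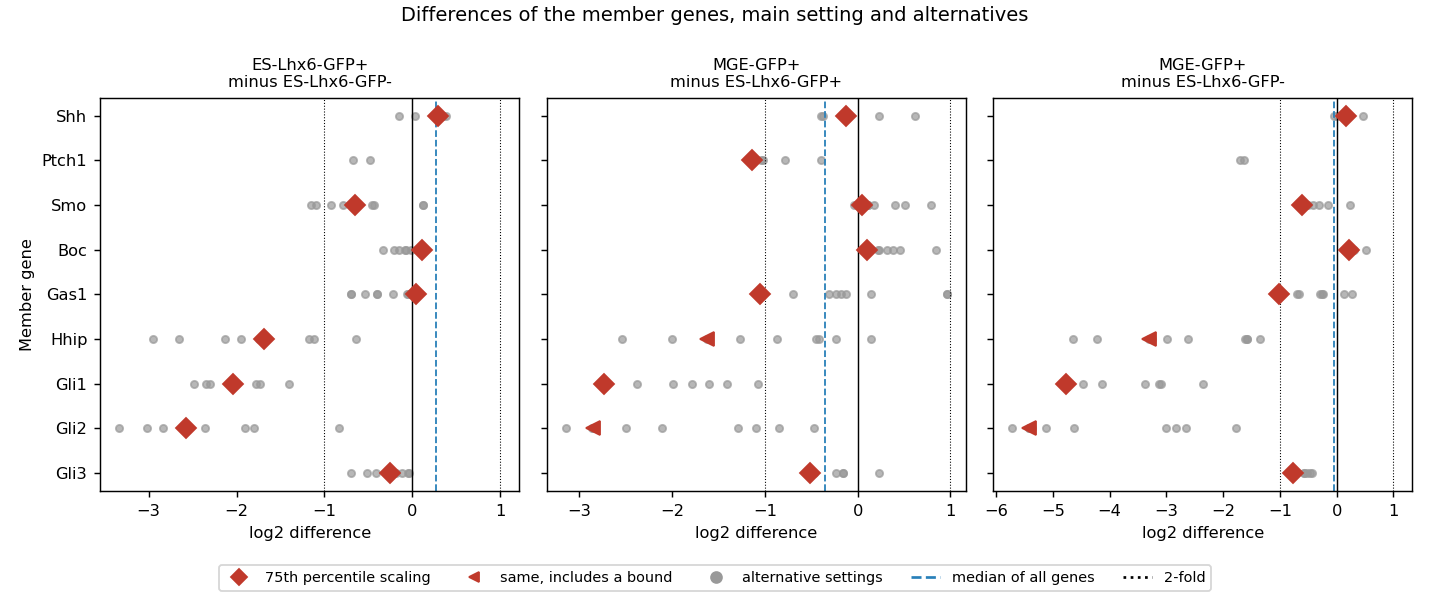
Log2 difference of each gene (x axis) in the 3 comparisons (panels), with the value under 75th percentile scaling in red, a triangle where it includes a lower bound on the size, and alternative settings as gray dots. Relative to ES-Lhx6-GFP- cells, Hhip, Gli1 and Gli2 stay to the left of 0 under every setting shown, whereas Shh, Smo and Gas1 fall on both sides. Ptch1 has only alternative values where its flagged spot is needed.

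Promoter sequence is given for Ptch1, Hhip and Gli2, which were all lower in MGE-GFP+ than in ES-Lhx6-GFP- cells (Ptch1 with its flagged spot kept), so that their starts can be set side by side. RefSeq promoter windows on GRCm38.p6 were found for 6 of the 9 genes (Ptch1, Smo, Gas1, Hhip, Gli2 and Gli3). The 250 bases before the transcription start are written 5′ to 3′ on the strand of the gene. Capitals mark the motif GGGTGGT, the core of the sequence that Gli factors bind. The Ptch1 window is chr13:63565736-63565985, minus strand, the Hhip window chr8:80058009-80058258, minus strand, and the Gli2 window chr1:119053620-119053869, minus strand.
Ptch1: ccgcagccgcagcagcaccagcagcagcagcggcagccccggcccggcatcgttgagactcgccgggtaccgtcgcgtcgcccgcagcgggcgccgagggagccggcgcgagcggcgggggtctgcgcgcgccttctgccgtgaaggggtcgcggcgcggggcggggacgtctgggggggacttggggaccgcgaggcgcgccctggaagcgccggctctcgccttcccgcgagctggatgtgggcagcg
Hhip: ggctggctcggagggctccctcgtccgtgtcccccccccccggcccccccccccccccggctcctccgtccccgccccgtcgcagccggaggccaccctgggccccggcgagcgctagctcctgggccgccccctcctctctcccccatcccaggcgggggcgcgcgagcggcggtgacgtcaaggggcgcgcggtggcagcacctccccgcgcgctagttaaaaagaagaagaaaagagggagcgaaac
Gli2: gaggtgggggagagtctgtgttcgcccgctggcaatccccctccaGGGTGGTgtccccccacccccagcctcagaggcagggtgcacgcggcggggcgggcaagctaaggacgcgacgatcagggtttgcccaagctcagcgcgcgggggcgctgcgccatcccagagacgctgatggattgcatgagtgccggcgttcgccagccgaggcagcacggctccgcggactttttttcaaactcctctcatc

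The Gli2 window held GGGTGGT once, starting 205 bases before the transcription start on the strand of the gene. This motif was searched on both strands in windows that ran from 250 bases before to 50 after the start, and 4.61% of all 32851 such windows held it. The overlapping motif TGGGTGG and the longer TGGGTGGT, GGGTGGTC and TGGGTGGTC were in 0 of the 6 windows and in 9.30%, 1.48%, 0.807% and 0.253% of all windows. The other 5 windows held none of these strings. The motifs were picked after a first look at these windows, and a match is a string of letters and not a measured binding site. The base composition was 78.4% G and C for Ptch1, 76% for Hhip and 67.2% for Gli2.

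Genes known to respond to hedgehog signaling did not all move in 1 direction. Of 16 such genes with a value, which include Gli1 and Hhip, 10 were at least 2-fold lower in ES-Lhx6-GFP+ than in ES-Lhx6-GFP- cells and 1 was higher, with a median of -1.49 (log2), where 6.4% of all genes were lower and their median was 0.27. For MGE-GFP+ relative to ES-Lhx6-GFP- cells 10 of 16 were lower and 1 higher, and the median was -2.50, compared with 17.2% and -0.06 for all genes. Between both GFP+ populations 8 of 17 were lower in MGE-GFP+ cells and 1 higher, with a median of -0.57, where 32.2% of all genes were lower and their median was -0.36. The 1 higher gene was Nkx2-1 in each comparison.

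Nkx2-1, the homeobox gene that specifies the MGE, was at 3673 in ES-Lhx6-GFP+, 1444 in ES-Lhx6-GFP- and 8371 in MGE-GFP+ cells. It was thus 2.87-fold and 8.49-fold higher in the GFP+ populations than in ES-Lhx6-GFP- cells, opposite to Gli1. The homeobox genes Nkx2-2, Nkx6-1 and Nkx6-2 and the floor plate gene Foxa2 were highest in ES-Lhx6-GFP- cells, as Gli1 was. Nkx6-2 was at 239, 2451 and 18.9, and Nkx6-1 at 279, 1792 and 53.5. Averaged over 2 probes each, Foxa2 was at 193, 1614 and 5.0 and Nkx2-2 at 652, 1798 and 13.5. In MGE-GFP+ cells the differences from ES-Lhx6-GFP- cells came to 88.4-fold for Nkx6-2 and 22.9-fold for Nkx6-1, and to 91.3-fold for Foxa2 and 40.5-fold for Nkx2-2 with their dim probes at the floor. All 4 were within the control range in MGE-GFP+ cells, and under another of the 4 scalings their log2 differences were -4.38 for Nkx6-2, -3.49 for Nkx6-1, -4.38 for Foxa2 and -3.94 for Nkx2-2.

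Olig2 and the D-type cyclins Ccnd1 and Ccnd2, which are expressed in progenitors, were lower in both GFP+ populations than in ES-Lhx6-GFP- cells, by 7.63-fold, 5.77-fold and 4.97-fold in ES-Lhx6-GFP+ cells and by 4.51-fold, 5.27-fold and 6.09-fold in MGE-GFP+ cells. Between both GFP+ populations none of these 3 genes differed by 2-fold, although Olig2 reached 1.51 (log2, higher in MGE-GFP+ cells) under another of the 4 scalings. Rab34, a GTPase of the ciliary pathway, was 2.30-fold lower in ES-Lhx6-GFP+ than in ES-Lhx6-GFP- cells.

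Of the 9 genes of reception, 5 were at least 2-fold lower in MGE-GFP+ than in ES-Lhx6-GFP+ cells, where 32.2% of all genes were lower. The 5 were Ptch1, Hhip, Lrp2, Gpc3 and, by the mean of its disagreeing probes, Gas1. With the 50th percentile Ptch1 was 1.32-fold lower, and the order for Hhip was not settled. Under another of the 4 scalings Lrp2 differed by -0.53 (log2). Lrp2, an endocytic receptor that binds Shh in the forebrain, was at 173 in ES-Lhx6-GFP+, 691 in ES-Lhx6-GFP- and 24.1 in MGE-GFP+ cells, within the control range in both GFP+ populations. Gpc3, a glypican that competes for the ligand, was at 855, 1219 and 127, and was 5.21-fold lower in MGE-GFP+ than in ES-Lhx6-GFP+ cells.

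Most of the 21 genes that carry the signal from Smo to the Gli factors stayed within 2-fold. In ES-Lhx6-GFP+ relative to ES-Lhx6-GFP- cells 3 were lower, Gli1, Gli2 and Efcab7 (-1.02), the last named after its value was seen, and 1 was higher, Gpr161, a ciliary receptor that opposes the pathway, by 2.13-fold. Of all genes, 6.4% were at least 2-fold lower and 24.0% higher on this pair of arrays. In MGE-GFP+ relative to ES-Lhx6-GFP- cells 5 of the 21 were lower and 0 higher, where 17.2% of all genes were lower and 9.91% higher. Besides Gli1 and Gli2 the 5 were the ciliary kinesin Kif7, by 5.05-fold, and Evc and Evc2, partners of Smo at the base of the cilium, by 2.02-fold and 2.26-fold. Between both GFP+ populations 4 of the 21 were lower in MGE-GFP+ cells, where 32.2% of all genes were lower. The 4 were Gli1, Gli2, Kif7 by 4.55-fold and Evc by 2.72-fold. Kif7 and Evc were within the control range in both GFP+ populations, and under another of the 4 scalings these differences were -0.87 and -0.60 (log2). Sufu, which restrains the Gli factors in the cytoplasm, was at 614, 725 and 658 and differed by at most 1.39-fold.

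The 13 genes of the primary cilium, where Smo meets the Gli factors, mostly stayed within 2-fold. In ES-Lhx6-GFP+ relative to ES-Lhx6-GFP- cells 1 was at least 2-fold higher (Rpgrip1l, 2.27-fold) and 0 were lower. Of all genes, 24.0% were higher there and 6.4% lower. Compared with ES-Lhx6-GFP- cells, MGE-GFP+ cells were higher in Rpgrip1l, Ift88 and Ofd1, by 3.01-fold, 2.26-fold and 2.12-fold, and 2.04-fold lower in Tctn1. On that pair of arrays 9.91% of all genes were at least 2-fold higher and 17.2% lower. Between both GFP+ populations MGE-GFP+ cells were 2.22-fold higher in Ift88, and 0 of the list were lower. Here 5.49% of all genes were higher and 32.2% lower.

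**Figure D4:**
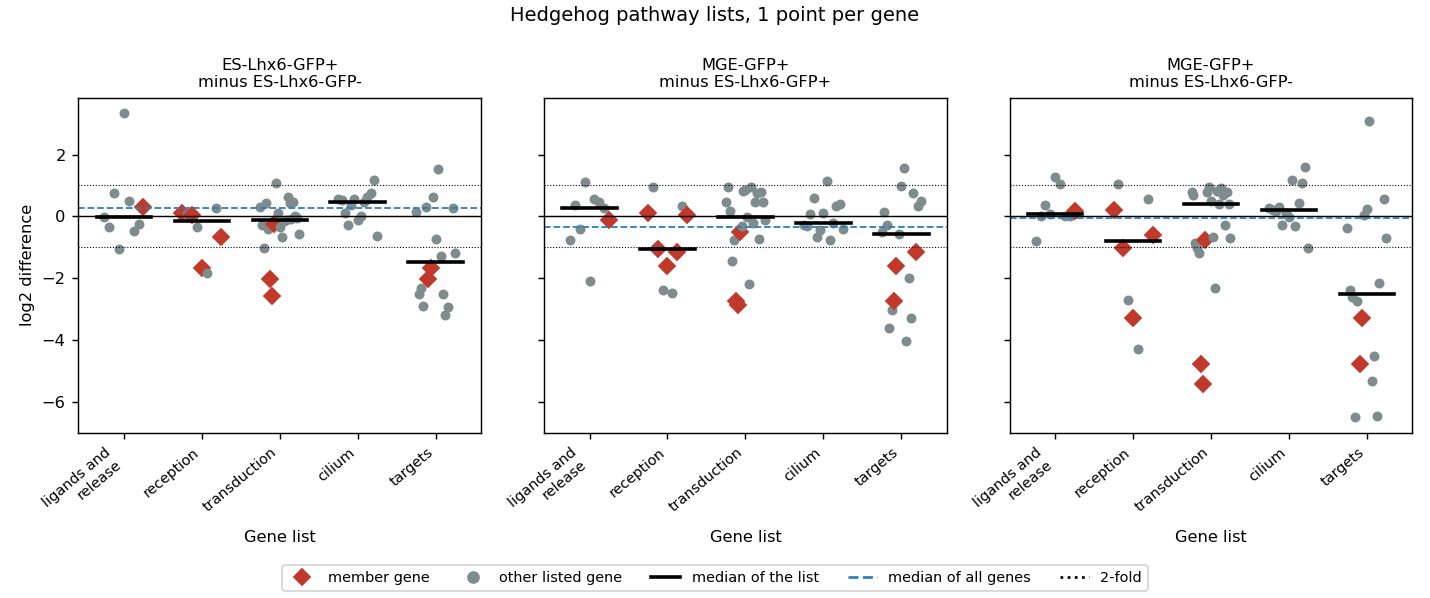
Log2 difference (y axis) of each gene of 5 hedgehog pathway lists (x axis) in the 3 comparisons (panels), with the 9 genes described here as red diamonds, black bars at the median of each list and the dashed line at the median of all genes. The target list lies lowest in both comparisons with ES-Lhx6-GFP- cells, with medians of -1.49 and -2.50. The medians of the cilium list are 0.45, -0.20 and 0.22, in the order of the panels.

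Gli1, Gli2 and Hhip were lower in both GFP+ populations than in ES-Lhx6-GFP- cells. Most markers of progenitors, dividing cells, floor plate, oligodendrocyte lineage and mesenchyme also lay lower in both, though not all by 2-fold. In sorted populations measured in bulk, fewer cells of a kind and less RNA per cell cannot be told apart. All 7 markers of neural progenitors were well above background on every array, and their summed level, relative to the 75th percentile, was 60.7 in ES-Lhx6-GFP-, 12.0 in ES-Lhx6-GFP+ and 14.7 in MGE-GFP+ cells. At least 2-fold lower than in ES-Lhx6-GFP- cells were 6 of 7 in either GFP+ population, Hes5 by 3.56-fold and 2.85-fold. Among all genes this share was 6.4% in ES-Lhx6-GFP+ and 17.2% in MGE-GFP+ cells. The 6 markers of dividing cells summed to 2.90, 10.7 and 7.0. Relative to ES-Lhx6-GFP- cells 5 of the 6 were at least 2-fold lower in ES-Lhx6-GFP+ and 3 in MGE-GFP+ cells. Only 1 of the 6 was above the control range in ES-Lhx6-GFP+ cells. All 6 were at least 2-fold higher in MGE-GFP+ than in ES-Lhx6-GFP+ cells, Mki67 by 2.65-fold, where 5.49% of all genes were higher. For Gli1 both levels lay within the control range on that pair of arrays, so no difference could be stated there above the control probes.

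The 6 floor plate markers summed to 5.55, 32.7 and 1.67, and Foxa2 and Foxa1 were not well above background in MGE-GFP+ cells. The 5 oligodendrocyte lineage markers summed to 1.27, 7.81 and 1.32, with Olig1 and Pdgfra not well above background in MGE-GFP+ cells. The 6 mesenchymal markers summed to 3.90, 5.93 and 0.321, with Col1a1 and Twist1 not well above background in MGE-GFP+ cells. In ES-Lhx6-GFP+ relative to ES-Lhx6-GFP- cells 5 of 6 floor plate, 3 of 5 oligodendrocyte lineage and 3 of 6 mesenchymal markers were at least 2-fold lower. Cspg4, Col1a1 and Col3a1 were higher there (0.16, 0.53 and 0.18, log2). In MGE-GFP+ cells 6, 4 and 6 were lower. Among all genes these shares were 6.4% and 17.2%. The part of such cells in the levels of Gli1, Gli2 and Hhip was not tested. As a check of the labels, all 9 MGE markers were at least 2-fold higher in either GFP+ population than in ES-Lhx6-GFP- cells, and Lhx6, the gene that drives the reporter, was 6.19-fold and 10.6-fold higher. The ES-Lhx6-GFP- cells still had all 9 above the control range.

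Patterns were compared among 11276 genes well above background on all 3 arrays and above the control range on at least 1. Gli2, not well above background in MGE-GFP+ cells, was thus not among them. Those whose pattern over the 3 arrays lay closest to that of Gli1 were Rcn1, Cox6b2, Cckar, Ppic and Agtrap, at distances of 0.10 to 0.18 (log2). Rcn1, for example, had scaled levels of 1.29, 3.28 and -1.59, compared with -1.61, 0.43 and -4.35 for Gli1. Closest to Shh, whose levels were nearly flat, were Copb1, Nat8f1, Cacng6, Kcnab1 and Pkd1, all within 0.01. With 3 arrays such likeness is a description of 3 values per gene.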

How the data were processed

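RNA of 3 sorted cell populations was measured on 1 array each. The authors labeled amplified RNA with Cy3 and extracted the scans with Agilent Feature Extraction (version 10.7.3.1 per the file headers), and the files they deposited hold background-subtracted intensity, per spot and on a linear scale. The methods and the labels name different amplification kits and array formats, and the files have the 62976 spots of the larger format. A table of log2 values, deposited by the authors as well, lay within 0.315 of quantile-normalized log2 median signals for every probe. It was used as an alternative.

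From the scanner files, log2 intensity minus the 75th percentile of the array's mouse probes was computed with Python 3.11.15, numpy 2.4.6 and pandas 2.3.3. Flagged spots (135 for ES-Lhx6-GFP+, 137 for ES-Lhx6-GFP- and 98 for MGE-GFP+ cells) were dropped, 0 spots were saturated, and repeat spots were averaged. A positive call of the software on at least a 0.5 share of its spots put a probe well above background, as were 90.6%, 80.3% and 77.1% of 55681 probes. One without it was set to the array's lowest scaled intensity with it. A gene's difference is the mean over its probes, called at 2-fold. RefSeq accessions named 26576 probes, and Hbb-b1 had none. Figures were drawn with matplotlib 3.10.9, and normexp correction used limma 3.58.1 in R 4.3.3. The scripts were tested on simulated data. All 3 arrays were on 1 slide, so no slide block could be fitted, and precision is limited by the number of arrays. No p-value was computed.

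The genes, the lists of 65 pathway and 66 marker genes and the settings were chosen with earlier results of these data known. Named besides the 9 genes were pathway genes at least 2-fold different in 1 direction under 4 scalings and above the control range on the brighter array (at most 25), Cdon, Sufu and Kif7, up to 4 bright markers of a list, and the 5 genes closest in pattern to Shh and Gli1 (Euclidean distance after centering). Some genes that the rule or the lists hold are not reported here. Markers of endothelial, microglial, erythroid and pluripotent cells and of neurons were measured too, and are given under the closing observations.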

Additional observations from a re-analysis of the deposited data

How the results depend on the processing

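The count of genes at least 2-fold different was 3 in ES-Lhx6-GFP+ relative to ES-Lhx6-GFP- cells, and became 1 with the floor at the control probes. In MGE-GFP+ relative to ES-Lhx6-GFP+ cells it was 5. It became 3 with quantile normalization, with the median signal without background subtraction, or with the median difference of all genes set to 0. It became 2 with the 50th percentile, in the deposited log2 values, at 4-fold, or with normexp on median signals, and 1 with the floor at the control probes. The other 27 counts, among them those of MGE-GFP+ relative to ES-Lhx6-GFP- cells, stayed within 1.5 times. Single gene differences of at least 2-fold changed sign 6 times, for Gas1 and Hhip, and smaller ones of Shh, Smo, Boc, Gas1 and Gli3 also changed sign under some settings. Gas1 in MGE-GFP+ relative to ES-Lhx6-GFP+ cells went from -1.06 to 0.14 in the deposited log2 values and to 0.96 with the floor at the control probes or with its brightest probe. Relative to ES-Lhx6-GFP- cells it went from -1.01 to 0.13 with that floor and 0.27 with its brightest probe. Hhip in MGE-GFP+ relative to ES-Lhx6-GFP+ cells went from -1.62 to 0.14 in the deposited log2 values. For Gas1 the brightest probe is a single probe with another pattern than the mean of 3, and otherwise the cause was not tested.

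Normexp on median signals and the centering on all genes were added after seeing the data. Normexp on mean signals and gene names from the scanner files were not run, since the columns they need were not in the files used here. No paired analysis was possible because each population had 1 array, and leaving out an array would leave no comparison. Dim signal limits the comparison of both GFP+ populations, where Gli1, Gli2 and Hhip lay within the control range on either side.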

Other observations

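Neuronal markers, 7 genes from Tubb3 to Snap25, were well above background on all 3 arrays and summed to 320.2 in ES-Lhx6-GFP+, 258.8 in ES-Lhx6-GFP- and 398 in MGE-GFP+ cells, relative to the 75th percentile of each array. Dcx, a microtubule protein of migrating neurons, was 1.29 (log2) higher in ES-Lhx6-GFP+ and 1.61 higher in MGE-GFP+ than in ES-Lhx6-GFP- cells. At least 2-fold higher than in ES-Lhx6-GFP- cells were 2 of the 7 in either GFP+ population. Among all genes this share was 24.0% in ES-Lhx6-GFP+ and 9.91% in MGE-GFP+ cells. In ES-Lhx6-GFP+ cells 1 of the 7 was lower, Elavl4 (-0.83), named after its value was seen. The sums rest largely on the probe of Snap25, which was at 155223, 157421 and 147475 in the same order of arrays. All 7 neuronal markers were above the control range in ES-Lhx6-GFP- cells as well.

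The 5 endothelial markers summed to 0.677, 0.551 and 0.994 (ES-Lhx6-GFP+, then ES-Lhx6-GFP-, then MGE-GFP+ cells), with Cdh5 not well above background on any array. The 5 microglial markers summed to 1.44, 0.707 and 1.31. The 4 erythroid markers with a probe summed to 1.18, 0.862 and 10.7. The 5 pluripotency markers summed to 310.3, 305.2 and 391 because of the probe of Nanog, which was at 230708, 251126 and 225105 on the 3 arrays, and 4 of the 5 were at least 2-fold lower in MGE-GFP+ than in either ES population. Of all genes, 32.2% were lower relative to ES-Lhx6-GFP+ and 17.2% relative to ES-Lhx6-GFP- cells.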
